A study of Mus musculus with 6 samples.

Results

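The endothelin system was followed here as 6 genes: the ligand genes Edn1, Edn2 and Edn3, the receptor genes Ednra and Ednrb, and Ece1, which encodes endothelin-converting enzyme 1. They were taken by symbol from the 50559 genes listed in each of the 6 matrices, and all 6 were found. The cells kept and assigned to a named class held 2767 unique molecular identifiers (UMIs) of Edn1, 308 of Edn2, 595 of Edn3, 2677 of Ednra, 690 of Ednrb and 5384 of Ece1. Edn2, Edn3 and Ednrb therefore rested on fewer UMIs than the other members.

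Endothelins are short peptides that act on neighbouring cells. They are cut from longer precursors, first by furin-type proteases and then by endothelin-converting enzymes, and the mature peptides bind the G protein-coupled receptors ETA (from Ednra) and ETB (from Ednrb). In vessels, ETA on muscle and mural cells drives contraction, whereas ETB on endothelium is linked to nitric oxide release and clearance of the peptide. ETA binds the products of Edn1 and Edn2 more strongly than that of Edn3, and ETB binds all of them about equally.

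The data are single-cell RNA profiles of the uterine tube (oviduct) of adult C57BL6 female mice in estrus, made with the 10x Genomics 3' v2 chemistry. The tube had been split into a distal and a proximal section, and the tissue of a section was pooled over a group of mice, so a library is a pool. The distal section was represented by 3 libraries (numbered 1, 2 and 3) and the proximal section by 3 libraries (numbered 2, 3 and 4), and no genotype, treatment or transgene separates them. The unit of replication is the library. The p-values below set a difference against spread between these pools, not between mice. edgeR estimates that spread partly over all genes tested, so it is not that of 1 gene alone.

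After filters and removal of doublets, 18415 cells remained, of which the distal libraries held 4101 to 6634 and the proximal libraries 325 to 1132. Median depth ran from 2895.5 to 4580.5 UMIs per barcode in the distal libraries and was 3666, 733 and 1081 UMIs in proximal 2, 3 and 4, so proximal 3 and proximal 4 were shallow. The cells were named by marker lists that do not hold the 6 genes, and the 6 genes were kept out of the clustering. The named classes were 3884 non-ciliated epithelial cells, 2204 ciliated cells, 8134 fibroblasts, 1876 smooth muscle cells, 190 pericytes and 558 blood endothelial cells, besides lymphatic endothelium, mesothelium, T and NK cells, myeloid cells and granulosa or luteal cells; 674 cells stayed without a class. All 11 blood endothelial markers were detected in blood endothelium of each library with at least 10 such cells, as were all 8 pericyte markers in pericytes. The number of cell barcodes shared by 2 libraries lay between 0 and 58 and was close to the number that random draws from the barcode list of this chemistry would give.

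Levels are given as CPM, the UMIs of a gene per 1000000 UMIs summed over the cells of a class in a library, where at least 10 cells were present. CPM values written with ± are a mean and SD over libraries. For a log2 difference, ± gives a standard error. For edgeR this was worked back from the test, as the absolute difference divided by the square root of its F statistic. In the distal libraries, which held most of the cells, Edn1 was found in epithelium and blood endothelium, Edn3 in fibroblasts, Ednra in pericytes, smooth muscle and fibroblasts, and Ednrb in pericytes and blood endothelium. Among epithelium, fibroblasts, smooth muscle, pericytes and blood endothelium, epithelium had the highest mean of Edn2 and the lowest means of Ednra.

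**Figure D1:**
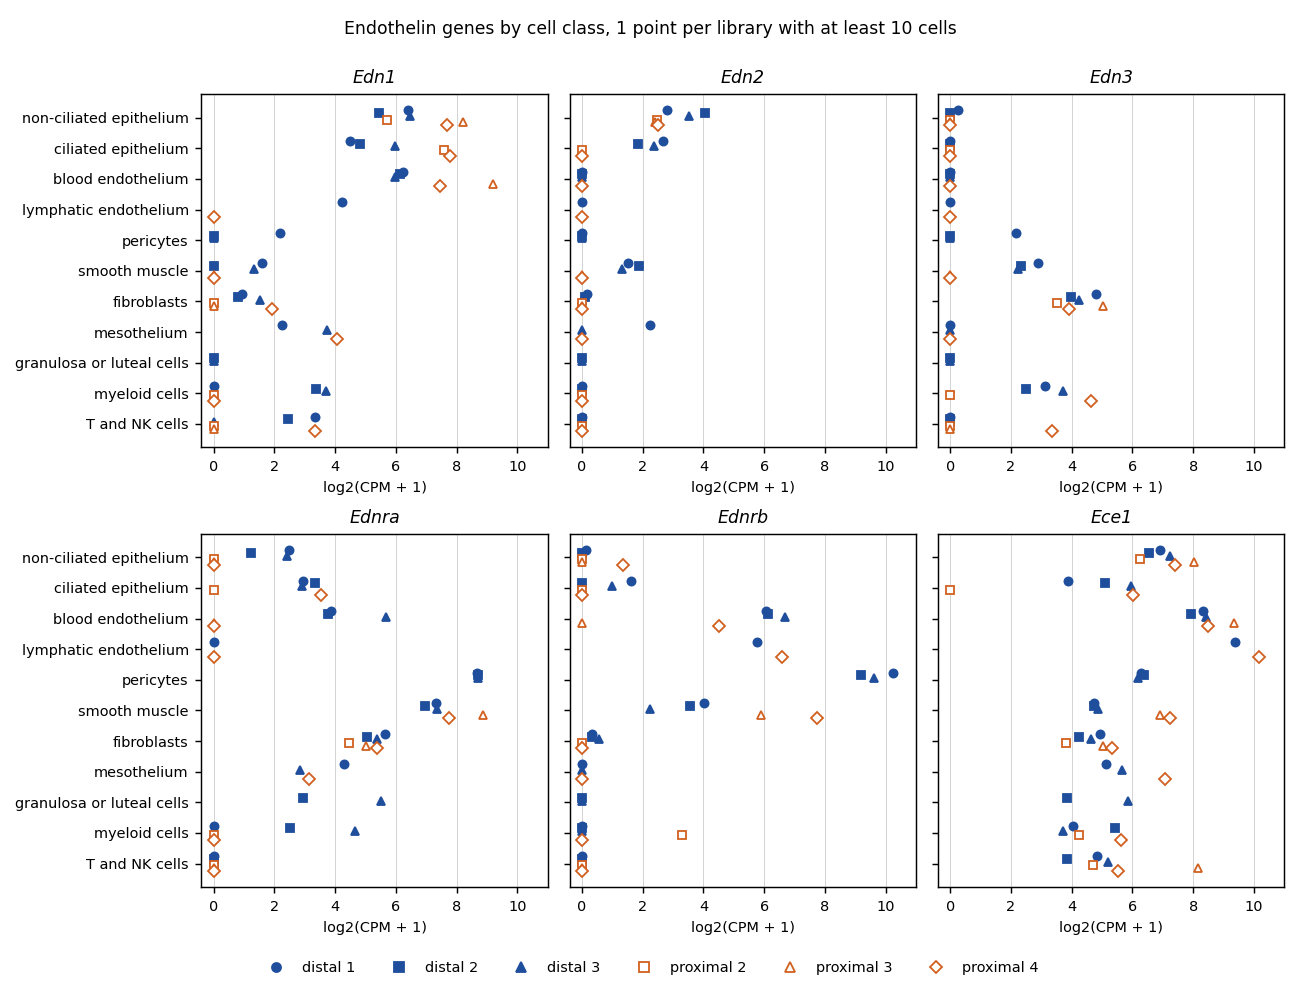
Level of each endothelin gene (log2 of CPM plus 1, horizontal axis) in each cell class (vertical axis), with 1 point for each library holding at least 10 cells of the class; filled points are distal libraries and open points proximal libraries. Edn1 lies to the right in the epithelial classes and blood endothelium, Edn2 in the epithelial classes, Ednrb in pericytes, where the 3 distal libraries reach 575 to 1214 CPM, and Ece1 in blood and lymphatic endothelium.

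Edn1, whose peptide is the main vasoconstrictor endothelin, was counted mainly in epithelium: 76.4% of the Edn1 UMIs in named cells came from non-ciliated cells, 16% from ciliated cells and 5.53% from blood endothelium. These shares depend on how many cells of each class were captured. As CPM, non-ciliated epithelium had 83.9, 42.2 and 87.8 CPM in distal 1, 2 and 3 (71.3 ± 25.2, n = 3). Blood endothelium had 73.4, 68.7 and 61.4 CPM (67.8 ± 6.06, n = 3), and ciliated cells had 21.2, 27.5 and 61.5 CPM (36.7 ± 21.7, n = 3). Non-ciliated epithelium overlapped blood endothelium in range and blood endothelium overlapped ciliated cells, whereas all 3 classes lay above mesothelium, the next in the order, at 3.76 to 12.3 CPM. Edn1 in fibroblasts was 0.737 to 1.88 CPM, so the mean in non-ciliated epithelium was 61 times and that in blood endothelium 58.1 times the fibroblast mean.

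Across the 48 sums of library and class, each class was compared with the other classes with edgeR's quasi-likelihood test and the library as a block. The comparison is with the unweighted mean of the other classes' log2 levels, so a class can be higher by this test and still lie below the mean CPM of the others where 1 of them is very high. Classes without a UMI of the gene, such as T and NK cells for Ednra, also lower that log2 mean. Edn1 was higher in non-ciliated epithelium (adjusted p = 7.0e-18), ciliated epithelium (adjusted p = 6.1e-12) and blood endothelium (adjusted p = 4.4e-13). The classes were themselves built from expression, so these tests describe the classes. A large share of all 10635 genes tested passed in the same direction, 36.8% for non-ciliated epithelium, 32.9% for ciliated epithelium and 21.2% for blood endothelium. Of the 4 members that passed the filter on low counts (Edn1, Ednra, Ednrb and Ece1), 2 were higher in non-ciliated epithelium, 1 in ciliated epithelium and 3 in blood endothelium.

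Within the distal epithelium Edn1 was uneven. The cluster E4, led by Cldn4, Itga6 and Msln, had 248, 59.9 and 168 CPM in distal 1, 2 and 3. E10, led by Slc6a2, had 120, 67.5 and 131 CPM. E1, led by Upk1a and S100b and the most numerous non-ciliated cluster with 1287 cells, had 23.3, 27.4 and 18.1 CPM, below E4 and E10 in every distal library. Ciliated cluster E2 had 4.63, 0 and 1.65 CPM, from 1, 0 and 1 UMIs, and its cells held 0.330 times the median UMIs of their library. Ciliated cluster E12 had 92.2 and 89.5 CPM in distal 2 and 3, and its cells held 5.21 times that median and were mostly from distal 3 (157 of 176). The part of depth and of epithelial RNA in the E12 level was not tested.

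**Figure D2:**
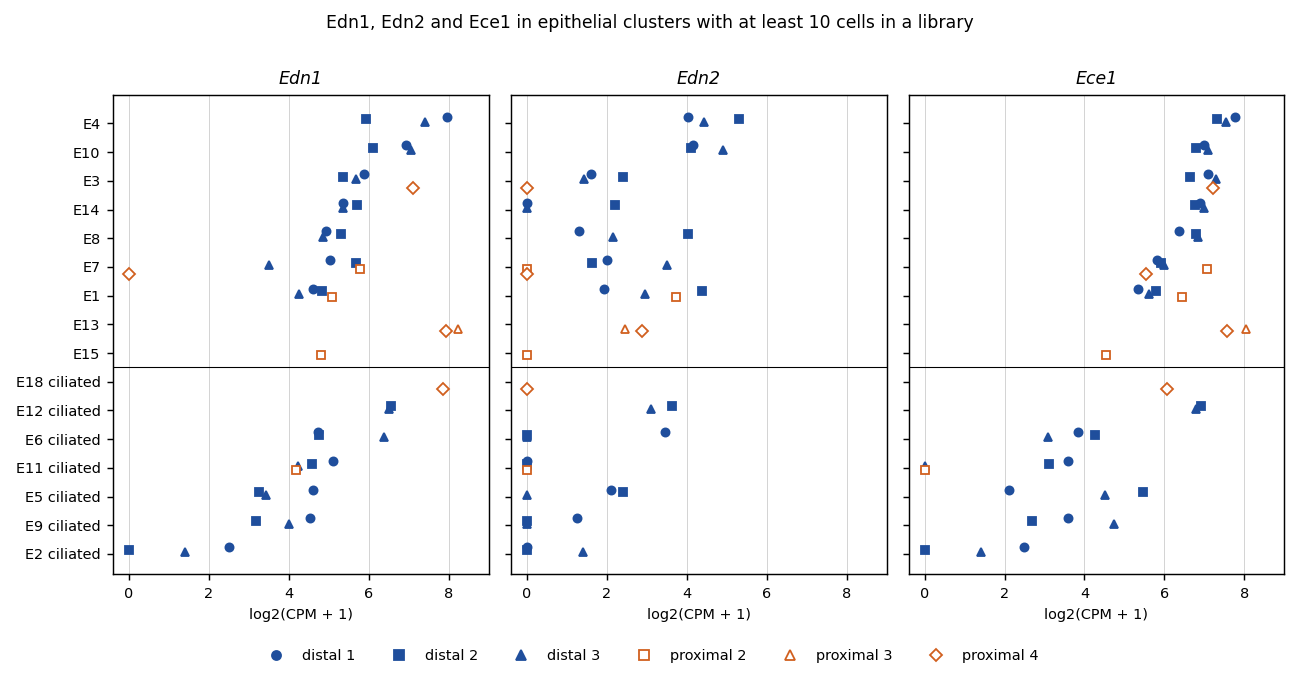
Edn1, Edn2 and Ece1 (log2 of CPM plus 1) in the larger epithelial clusters, 1 point per library with at least 10 cells of the cluster. The line separates non-ciliated clusters (above) from ciliated clusters (below). The small named clusters E17 (ciliated) and E19 (non-ciliated) are not drawn. E13, with points from proximal 3 and proximal 4 only, has the highest Edn1 of the proximal points, 297 and 243 CPM, and distal E4 reaches 248 CPM.

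Short stretches of the Edn1 promoter are shown because the list of known regulators below includes GATA factors and AP-1 members, which act on this gene in vascular cells. They come from RefSeq (build GRCm38.p6, plus strand, positions counted from the transcription start as 1), and capitals mark a searched motif.
Edn1, chr13:42301459-42301488, with GATAAG on the other strand starting at position 8: ccgtgatttcctctagagccgggtCTTATC
Edn1, chr13:42301496-42301525, with TGACTAA starting at position 37: gcacgttgcctgtgggTGACTAAtcacaca
Both strands of the window from 250 bases before to 50 bases after the start were searched. The GATA motif GATAAG was found in 7.44% of 32851 promoters of this length. The AP-1-like motif TGACTAA was found in 2.35%. The general AP-1 motif TGANTCA was found in 7.81% and not in the Edn1 window. None of these motifs was found in the windows of the other members. A match is a description of the letters only.

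Of the Edn2 UMIs in named cells, 82.1% came from non-ciliated and 12.3% from ciliated epithelium. Non-ciliated epithelium had 5.92, 15.7 and 10.4 CPM in the distal libraries (10.7 ± 4.91, n = 3), from 246 UMIs. Ciliated cells had 5.4, 2.62 and 4.17 CPM, which did not overlap the non-ciliated range. Smooth muscle had 1.84, 2.7 and 1.5 CPM, and no Edn2 UMI was counted in blood endothelium or pericytes, where 3 UMIs would give 2.68 and 10.5 CPM in distal 1. In blood endothelium of distal 2 and 3, 3 UMIs would give 18.7 and 7.08 CPM. The 10.5 CPM of pericytes lay above the 5.92 CPM of non-ciliated epithelium in distal 1, so pericytes could not be placed below it. Edn2 had too few counts for the filtered test of classes; without the filter on low counts it was higher in non-ciliated epithelium (edgeR adjusted p = 4.3e-24), ciliated epithelium (adjusted p = 1.4e-06) and smooth muscle (adjusted p = 0.0236). Among non-ciliated cells 896 of 3884 held an Edn1 UMI, 163 an Edn2 UMI and 64 both. Edn2 also varied by cluster, with values above the class mean in E4 (15.4, 38.3 and 20.6 CPM) and E10 (16.9, 16.3 and 28.9 CPM). In E1 it was 20 CPM in distal 2 and 2.84 and 6.8 CPM in distal 1 and 3.

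Of the Edn3 UMIs in named cells, 91.4% came from fibroblasts and 7.23% from smooth muscle. Fibroblasts had 26.8, 14.6 and 18 CPM in the distal libraries (19.8 ± 6.34, n = 3) and 10.5, 31.7 and 13.9 CPM in proximal 2, 3 and 4, the proximal 3 value resting on 3 UMIs. The distal mean was 4.18 times that of smooth muscle (4.74 ± 1.48, n = 3). Myeloid cells followed fibroblasts at 8.16 CPM, but from 1 UMI in each distal library. Edn3 also fell below the low-count filter of the class test; without that filter it was higher in fibroblasts (edgeR adjusted p = 6.0e-45) and smooth muscle (adjusted p = 1.5e-06). No Edn3 UMI was counted in ciliated cells or blood endothelium, and 2 were counted in non-ciliated epithelium. Fibroblasts differed among themselves: cluster 3, led by Htra3, Mgp and Pdgfra, had 40.4, 31.8 and 32.3 CPM, while cluster 6, led by Ramp3 and Lsamp, had 4.47, 4.79 and 14.6 CPM. The ranges of these clusters did not overlap.

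Ece1, the membrane protease that makes mature endothelin from its intermediate, was detected in every named class. Blood endothelium had 317, 244 and 340 CPM in the distal libraries (300 ± 50.2, n = 3), and non-ciliated epithelium 120, 91.5 and 149 CPM (120 ± 28.5, n = 3). Both classes were higher than the log2 mean of the others (edgeR adjusted p = 2.8e-14 and 5.6e-08). Lymphatic endothelium stood above both where at least 10 cells were captured, at 668 CPM in distal 1 and 1150.4 CPM in proximal 4, although 12 of the 24 UMIs in proximal 4 came from 1 cell. Pericytes followed at 71.8 to 82.2 CPM, from 2 UMIs in distal 2, and the remaining classes had means of 23.2 to 41.5 CPM, with ranges that overlapped from each class to the next.

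In epithelium Ece1 also differed between clusters. E4 had 216, 158 and 184 CPM and E10 had 127, 109 and 134 CPM, against 39.8, 54.3 and 47.6 CPM in E1. Of the 896 non-ciliated cells with an Edn1 UMI, 560 also held an Ece1 UMI, and 1586 of all 3884 non-ciliated cells held one. Cells with more UMIs are more likely to show both genes, and E4 cells held 1.96 times the median of their library, so the part of depth in this joint count was not tested.

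Ednra, the receptor gene linked to contraction, had its highest distal level in pericytes, with 407, 411 and 417 CPM in distal 1, 2 and 3 (412 ± 4.84, n = 3). Smooth muscle had 157, 124 and 162 CPM (148 ± 20.6, n = 3) and fibroblasts 48.5, 32 and 40.8 CPM (40.4 ± 8.24, n = 3). These 3 classes were separated from each other in every distal library. The pericyte mean was 2.78 times that of smooth muscle and the smooth muscle mean 3.66 times that of fibroblasts. On the log2 scale of the class test, Ednra was higher than the mean of the other classes in pericytes (edgeR adjusted p = 9.3e-16), smooth muscle (adjusted p = 8.6e-16) and fibroblasts (adjusted p = 1.5e-06). As CPM, fibroblasts lay below the mean of the other classes, 71.5 CPM, which holds the pericyte value. Across all genes tested, 9.77% passed as higher in pericytes, 20% in smooth muscle and 28.3% in fibroblasts; of the 4 members tested, 2, 2 and 1 did. Fibroblasts, the most numerous cells, held 41.8% of the Ednra UMIs, against 44.3% in smooth muscle and 5.98% in pericytes. Epithelium was low, at 1.37 to 4.52 CPM in non-ciliated cells and 6.55 to 9.15 CPM in ciliated cells, and no Ednra UMI was counted in T and NK cells.

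Within fibroblasts, Ednra was 79.5, 56.5 and 61.4 CPM in cluster 3. Cluster 6 had 26.8, 20.2 and 20.4 CPM, and cluster 2, led by Htra3, Dcn and Lama2, had 41.3, 33.8 and 41.9 CPM, so cluster 3 lay above both, for Ednra and, against cluster 6, for Edn3. Of 8134 fibroblasts, 898 held an Ednra UMI, 7 an Ednrb UMI and 0 both.

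Ednrb, the receptor gene of endothelium and mural cells, was concentrated in mural cells and endothelium. It was among the 10 leading genes of the pericyte cluster. Pericytes held 60.3% of its UMIs, at 1214, 575 and 790 CPM in distal 1, 2 and 3 (860 ± 325, n = 3). Blood endothelium had 66.2, 68.7 and 101 CPM (78.8 ± 19.7, n = 3) and smooth muscle 15.3, 10.8 and 3.74 CPM (9.94 ± 5.81, n = 3). The 8 UMIs of smooth muscle in distal 2 all came from 1 cell. Of the 11 UMIs of blood endothelium in distal 2, 7 came from 1 cell, and without it the level was 28.6 CPM; the same cell held both Ednra UMIs of this class and library. The ranges of these 3 classes did not overlap, and the pericyte mean was 10.9 times that of blood endothelium. Lymphatic endothelium had 52.7 CPM in distal 1 and 95.9 CPM in proximal 4, from 3 and 2 UMIs. The other distal class means were at or below 1.02 CPM. On the log2 scale of the class test, Ednrb was higher than the mean of the other classes in pericytes (edgeR adjusted p = 2.0e-20), blood endothelium (adjusted p = 1.2e-10) and smooth muscle (adjusted p = 0.000408). As CPM, blood endothelium and smooth muscle lay below the means of their other classes, 96.8 and 104 CPM, which hold the pericyte value.

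To compare shares of cells at 1 depth, each cell with at least 1000 UMIs was thinned to that number and shallower cells were left out, 45 of 186 distal pericytes and 199 of 7015 distal fibroblasts among them. In distal pericytes 46.8% of 141 thinned cells (exact 95% interval 38.4% to 55.4%) held an Ednrb UMI, and 62.4% of 186 cells did without thinning, at a median of 1642 UMIs. In fibroblasts, a class that gives the background level, the shares were 0.0293% thinned and 0.0998% unthinned at a median of 3501 UMIs. The thinned share for Ednra was 29.8% in distal pericytes, 14.9% in distal smooth muscle and 3.68% in distal fibroblasts, the same order as the CPM. For Edn1 it was 6.11% in distal blood endothelium, 5.63% in distal non-ciliated epithelium and 0.161% in distal fibroblasts. Intervals and shares from single cells cover counting error only.

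Smooth muscle and blood endothelium each held clusters with and without Ednrb. Smooth muscle cluster 4 (1652 cells, led by Actg2, Myh11 and Cnn1, genes of the smooth muscle contractile apparatus) had 148, 120 and 163 CPM of Ednra but 0.396, 0 and 0 CPM of Ednrb. Cluster 20 (224 cells, led by Ctnna3, Mustn1 and Kcnab1, with Rgs5 and Pln among its leading genes) had 277 and 152 CPM of Ednra and 209 and 69.1 CPM of Ednrb in distal 1 and 3. In proximal 3 and 4, cluster 20 had 447 and 221 CPM of Ednra and 63.9 (1 UMI) and 240 CPM of Ednrb. Of the cells of cluster 4, 668 held an Ednra UMI, 2 an Ednrb UMI and 1 both; of those of cluster 20, 87 held Ednra, 55 Ednrb and 33 both. Of 190 pericytes, 94 held Ednra, 117 held Ednrb and 62 both. Of the 96 distal Ednrb UMIs in smooth muscle, 2 were in cluster 4.

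Blood endothelial cluster 14 (led by Flt1, Ly6c1, Abcb1a and Cldn5) had 95.1, 120 and 160 CPM of Ednrb in distal 1, 2 and 3, and 55.9 CPM in distal 2 without the cell that held 7 of its 11 UMIs. Cluster 19 (led by Selp and with Vwf and Sele, genes of venous or activated endothelium) had 0 UMIs in those libraries, where 3 UMIs would give 8.84, 43.9 and 19.3 CPM, so its level was below that of cluster 14 in each. Edn1 overlapped between the clusters in the distal libraries, at 75.8, 65.4 and 70.8 CPM in cluster 14 and 67.7, 73.2 and 45.1 CPM in cluster 19. Ece1 was 335, 240 and 388 CPM in cluster 14 and 274, 249 and 257 CPM in cluster 19. Ednra was 18, 21.8 and 74.5 CPM in cluster 14, the distal 2 value from 2 UMIs in 1 cell, and 12 of its 17 cells with an Ednra UMI also held Ednrb. All 8 pericyte markers were detected in distal blood endothelium, summing to 691, 350 and 861 CPM, against 7671 to 12167 CPM in pericytes, and their part in the endothelial Ednra and Ednrb levels was not tested.

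**Figure D3:**
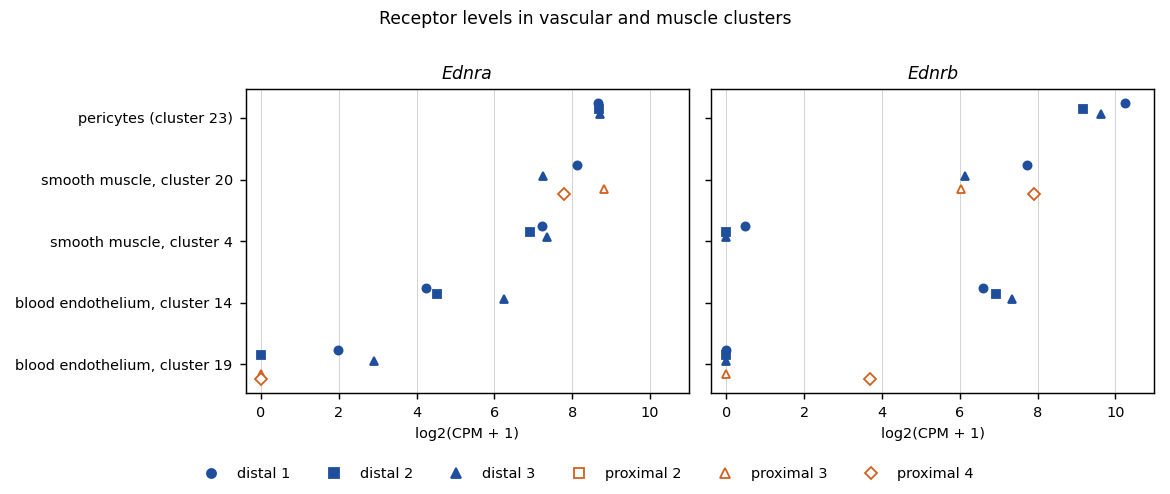
Ednra (left) and Ednrb (right), as log2 of CPM plus 1, in pericytes and in the clusters of smooth muscle and blood endothelium, 1 point per library with at least 10 cells. Ednra is present in both muscle clusters, whereas Ednrb lies at 0 to 0.396 CPM in cluster 4 and at 63.9 to 240 CPM in cluster 20, and separates endothelial clusters 14 and 19.

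The proximal section was then compared with the distal section within each class, as log2 of proximal over distal with its standard error (edgeR, Benjamini-Hochberg adjustment over all genes tested). Proximal libraries gave few cells: 451 non-ciliated, 61 ciliated, 1119 fibroblasts, 74 smooth muscle and 91 blood endothelial cells, and ciliated, smooth muscle and blood endothelial cells reached 10 in only 2 proximal libraries each. Pericytes, with 4 proximal cells, were not compared. Fewer transcripts per cell and a different mix of cells within a class cannot be told apart in such sums.

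In non-ciliated epithelium, Edn1 was 51.5, 292 and 203 CPM in proximal 2, 3 and 4, so proximal 2 lay within the distal range and the other 2 libraries above it. The log2 difference was 1.11 ± 0.53 (edgeR adjusted p = 0.318). Without proximal 2 it was 1.46 ± 0.32 (edgeR adjusted p = 0.00464). The proximal cells were largely of other clusters: E13 (with Serpina1e and Penk among its leading genes) held 82 of 86 cells of proximal 3 and 79 of 132 cells of proximal 4, with 297 and 243 CPM, and E15 held 86 of 233 cells of proximal 2, with 26.8 CPM. Without E13 and E15, which are mostly proximal, proximal 3 fell below 10 cells and left the test. With proximal 2 and 4 remaining, the difference was -0.32 ± 0.48 (edgeR adjusted p = 0.880). Edn2 was counted at 4.55, 4.36 and 4.68 CPM in the proximal libraries, below all 3 distal values, from 3, 1 and 3 UMIs (log2 difference -1.33 ± 0.66, edgeR adjusted p = 0.334). In proximal 3, 3 UMIs would give 13.1 CPM, above the 5.92 and 10.4 CPM of distal 1 and 3, so its place is not known. Ece1 was 75.8, 257 and 168 CPM (log2 difference 0.26 ± 0.43, edgeR adjusted p = 0.812). None of the 3 members tested passed, at 2.59% of 12788 genes higher and 0.977% lower; at an unadjusted p under 0.05 there were 2251 genes and DESeq2 called 1560 genes, none of them a member. Ednra had 93 distal UMIs and 0 proximal UMIs and was not tested. With the libraries of a section pooled, against a floor of 3 proximal UMIs, it was at least 1.9-fold lower. By library, 3 UMIs would give 4.55, 13.1 and 4.68 CPM in proximal 2, 3 and 4. These lie above the 4.52, 1.37 and 4.39 CPM of distal 1, 2 and 3, so the bound does not hold library by library.

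In ciliated cells Edn1 was 189 CPM in proximal 2 and 221 CPM in proximal 4, both above the distal maximum of 61.5 CPM. The log2 difference was 2.27 ± 0.55 (edgeR adjusted p = 0.104), and it was not called. The proximal 2 value rested on 13 UMIs, of which 12 were in 1 of the 22 cells. Without that cell it was 16.8 CPM, from 1 UMI. With all 22 cells, 3 UMIs would give 43.7 CPM, above the 21.2 and 27.5 CPM of distal 1 and 2. The place of proximal 2 without that cell is therefore not known. In proximal 4, 21 UMIs were spread over 10 of 32 cells, 29 of which belonged to E18, a cluster with Cldn4 and Krt17 among its leading genes. All 11 epithelial markers were detected in ciliated cells of each library. They summed to 10228 CPM in proximal 4 ciliated cells, against 5027 to 6282 CPM in the other libraries, and their part in the Edn1 level was not tested. Without distal 3 edgeR called Edn1 (3.05 ± 0.43, adjusted p = 0.0305). DESeq2 called Edn1 here (log2 difference 2.45 ± 0.64, adjusted p = 0.00556), and so did edgeR without cluster E12 (2.93 ± 0.45, adjusted p = 0.00620). Of 12362 genes tested, 0.332% were higher and 0.178% lower, and 0 of the 3 members tested were called; 2103 genes had an unadjusted p under 0.05, Edn1 among them, and DESeq2 called 591.

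In fibroblasts the log2 difference was -0.67 ± 0.37 for Edn3, -0.58 ± 0.29 for Ednra and -0.12 ± 0.37 for Ece1 (edgeR adjusted p = 0.416, 0.357 and 0.928). Ednra was 21.1, 31.7 and 40.3 CPM in the proximal libraries, overlapping the distal range. None of these 3 was called, with 1.91% of 13759 genes higher and 0.858% lower; 2252 genes had an unadjusted p under 0.05 and DESeq2 called 501, none of them a member.

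In smooth muscle 2 of the 3 members tested were called higher in the proximal section, from few proximal UMIs. Neither was called within cluster 20 alone. Ednrb was 58.9 CPM in proximal 3, from 1 UMI, and 214 CPM in proximal 4, from 13 UMIs in 6 cells, against a distal maximum of 15.3 CPM. In proximal 3, 3 UMIs would give 177 CPM, so its place against the distal range is not known. The log2 difference was 3.54 ± 0.62 (edgeR adjusted p = 9.3e-07). With 2 proximal libraries, this p-value rests mainly on a spread estimated over all genes, not on that of Ednrb alone. Ece1 was 118 and 148 CPM, from 2 and 9 UMIs, against 25.6 to 28.4 CPM (log2 difference 2.02 ± 0.60, edgeR adjusted p = 0.00944). Its proximal 3 value also lay below the 177 CPM of 3 UMIs, so its place there is not known either. Ednra was 471 and 214 CPM, both above the distal maximum of 162 CPM (0.50 ± 0.43, edgeR adjusted p = 0.478). Of 9094 genes, 4.99% were higher and 8.39% lower, and the median over all genes was -0.49. The mix of clusters differed: cluster 4 held 1118 of 1250, 142 of 146 and 382 of 406 cells in distal 1, 2 and 3, whereas cluster 20 held 27 of 29 and 37 of 45 cells in proximal 3 and 4. Within cluster 20 alone the Ednrb difference was 0.07 ± 0.59 (edgeR adjusted p = 0.966). Distal 2, with 4 cells of cluster 20, was not in that fit, and distal 3 and proximal 3 held 5 and 1 UMIs. Without proximal 4 in the whole class the Ednrb difference was 1.25 ± 2.01. Without proximal 4 the Ece1 difference was 1.01 ± 0.99 (edgeR adjusted p = 0.570). The pericyte list summed to 1943 and 1862 CPM in proximal smooth muscle (4 and 6 of 8 markers detected) and to 520 to 854 CPM in distal smooth muscle (8 of 8), and its part in the Ednrb difference was not tested.

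In blood endothelium Edn1 was called higher in the proximal section, from few proximal UMIs, and the call was lost in some alternatives. It was 588 CPM in proximal 3 (18 UMIs in 10 cells) and 174 CPM in proximal 4 (16 UMIs in 7 cells), against 61.4 to 73.4 CPM, a log2 difference of 2.11 ± 0.46 (edgeR adjusted p = 0.0184). Within cluster 19 alone, which held 27 of 33 and 49 of 56 cells of these proximal libraries, it was 2.08 ± 0.57 (edgeR adjusted p = 0.0303). The call was lost without proximal 3 (1.25 ± 0.43, edgeR adjusted p = 0.143), without distal 1 (2.25 ± 0.59, edgeR adjusted p = 0.0808) and with the distal sums thinned to proximal depth (1.55 ± 0.56, edgeR adjusted p = 0.0912). Among cells thinned to 1000 UMIs, 17.1% of 41 proximal cells held an Edn1 UMI (exact 95% interval 7.15% to 32.1%), against 6.11% of 393 distal cells (3.95% to 8.95%). These intervals overlapped. Of 91 proximal and 467 distal cells, 50 and 74 had fewer UMIs and were left out. Unthinned, the shares were 18.7% and 14.1%, at medians of 967 and 2493 UMIs. The epithelial list summed to 65.3 and 294 CPM in proximal blood endothelium (2 and 6 of 11 markers detected) and to 119 to 840 CPM in the distal (4 to 11 detected), and its part in the Edn1 difference was not tested. Ednrb was 0 and 21.7 CPM (0 and 2 UMIs) in proximal 3 and 4, against a distal minimum of 66.2 CPM (log2 difference -2.30 ± 0.81, edgeR adjusted p = 0.0991). In proximal 3, 3 UMIs would give 98 CPM, so a level like that of distal 1 or 2 was not detectable there. Most of the proximal cells were of cluster 19, in which no distal Ednrb UMI was counted. Ece1 was 653 and 359 CPM (0.55 ± 0.31, edgeR adjusted p = 0.291). Of 4025 genes, 3.73% were higher and 4.94% lower, and 1 of the 3 members tested was called.

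**Figure D4:**
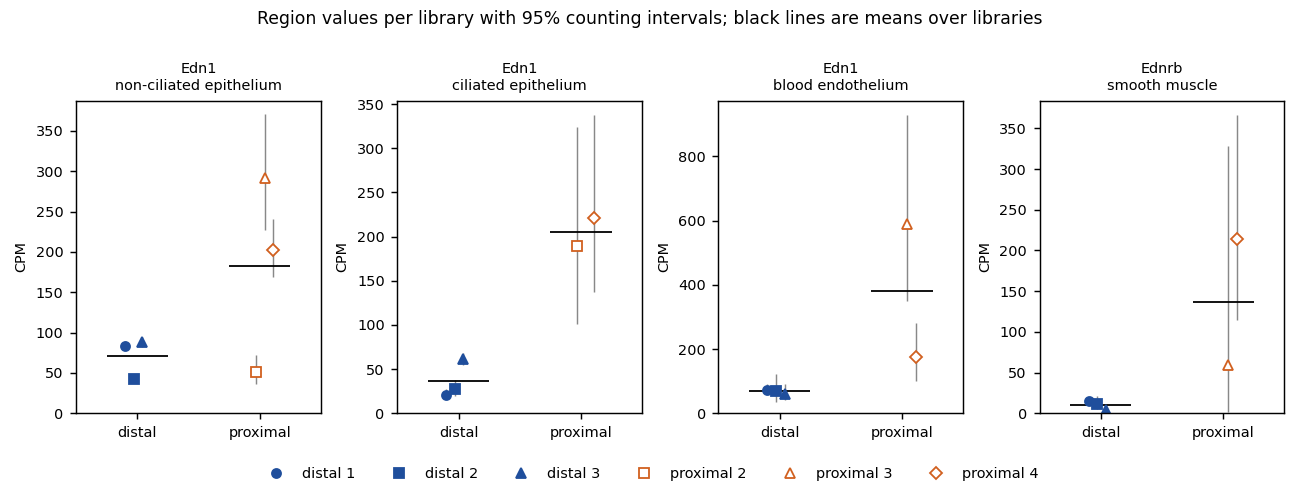
CPM of Edn1 in 3 classes and of Ednrb in smooth muscle, per library with at least 10 cells, with exact 95% counting intervals; black lines are the means over libraries. The proximal intervals are wide: Ednrb in proximal 3 smooth muscle rests on 1 UMI, and 12 of 13 Edn1 UMIs in proximal 2 ciliated cells came from 1 cell.

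A list of 66 other genes of the pathway covers processing and clearance, receptor coupling, contraction, nitric oxide and prostacyclin, and regulators of the Edn1 gene. In the class comparison 61 of them were tested. In pericytes 18 were higher (29.5%, against 9.77% of all genes tested) and 1 lower (1.64% against 1.78%), with 9 of 13 contraction genes higher. Their median log2 difference was 0.24, against 0.00 over all genes. Among the largest differences were those of Trpc6 (a cation channel, 8.90 ± 0.42), Rgs4 (a brake on Gq signalling, 8.14 ± 0.68) and Gucy1b1 (a subunit of the nitric oxide receptor, 7.14 ± 0.38). In smooth muscle 29 were higher (47.5% against 20%) and 3 lower (4.92% against 5.59%; median 0.75 against 0.15), led by the myosin light chain gene Myl9 (6.72 ± 0.34), with 11 of 13 contraction genes higher. In blood endothelium 35 were higher (57.4% against 21.2%) and 1 lower (1.64% against 5.78%; median 0.82 against 0.16), led by Nos3, the endothelial nitric oxide synthase (6.94 ± 0.38), with 16 of 23 receptor coupling genes higher.

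In fibroblasts 27 were higher (44.3% against 28.3%) and 5 lower (8.20% against 5.74%; median 0.89 against 0.23), led by Ptgis, prostacyclin synthase (3.79 ± 0.33). In non-ciliated epithelium 9 were higher (14.8% against 36.8%) and 15 lower (24.6% against 12%; median -0.37 against 0.29). In ciliated cells 10 were higher (16.4% against 32.9%) and 17 lower (27.9% against 13.3%; median -0.41 against 0.18). Mme, which encodes neprilysin, a protease that degrades endothelins among other peptides, led in non-ciliated cells at 115 ± 24.3 CPM (n = 3 distal libraries; log2 difference 4.5 ± 0.26, edgeR adjusted p = 4.0e-20). Itpr3, an inositol trisphosphate receptor gene, followed (2.97 ± 0.32), and in ciliated cells Plcb3, a phospholipase C gene, led (3.20 ± 0.24). 

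Between regions, in non-ciliated epithelium 1 of 50 tested genes was higher (2%, near the 2.59% of all genes) and 3 lower (6% against 0.977%). The higher gene was Gata2, a transcription factor known to act on Edn1, at 4.65 ± 0.48 (edgeR adjusted p = 0.00272), from 0.878 ± 0.408 CPM in the distal libraries. Edn1 was not called in this class (edgeR adjusted p = 0.318). Gata6, Pcsk5 and Myl9 fell by 3.85, 2.74 and 2.66. In ciliated cells 0 of 47 passed, and in fibroblasts 0 of 58 were higher and 3 lower (Rgs2, Ptgs1 and Klf2; 5.17% against 0.858%). In smooth muscle 6 of 51 were higher (11.8% against 4.99%) and 7 lower (13.7% against 8.39%); Plcb4 (4.24 ± 0.53), Rgs4 (3.11 ± 0.44), Gucy1a1 (2.77 ± 0.57), Hif1a (1.84 ± 0.37) and Egr1 (1.63 ± 0.35) rose, and Rgs2 fell by 2.47. In blood endothelium 3 of 38 were higher (Arrb1, Ptgs1 and Plcb4; 7.89% against 3.73%) and 2 lower (Plcb1 and Cacna1c; 5.26% against 4.94%), the latter near the share over all genes. The mix of clusters named above differed between the regions for these genes too.

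The genes whose level was most like that of a member over the 29 distal sums of library and class (11 classes) were listed by Pearson correlation among 9192 genes. Sums of a library share its depth and free RNA, so the values are descriptive. Ednrb was most like Meox2 and Higd1b (r = 0.95 each), Rgs5 (0.939), Septin4 (0.924) and Gja4 (0.917), of which Higd1b and Rgs5 were in the pericyte marker list. Ednra was most like Nfatc4 (0.927), Dgkb (0.924), Dmd (0.918), Aoc3 (0.914) and Pde1a (0.911). Among the genes most like Edn1 were Clic5 (0.915), Kcnq1 (0.867), Mfsd2a (0.865) and Ica1 (0.853). Edn2 was most like Ptprt (0.900) and Sftpd (0.880), Edn3 like Abca8a (0.921), Penk (0.906) and the fibroblast marker Pdgfra (0.903), and Ece1 like Thsd1 (0.860) and Rasip1 (0.854).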

How the data were processed

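The deposited matrices (6, 1 for each library) hold UMI counts, whole numbers that the authors had not scaled, per the file headers and values. The file headers name Cell Ranger 7.0.0, whereas version 6.1.2 and mm39 stand in the submitters' processing notes. Barcodes with at least 500 UMIs, 250 genes and at most 20% mitochondrial UMIs were kept (1447 removed), and 869 doublets (0.8% per 1000 barcodes, ranked against simulated doublets) were removed. Library totals ran from 426707 to 32488145 UMIs.

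Cells were clustered with scanpy 1.11.5 and leidenalg 0.10.2 on 2000 variable genes (30 components, 15 neighbours, resolution 1), without the 6 members, the pathway list and mitochondrial, ribosomal and haemoglobin genes. Marker genes could enter. A cluster took the class with the highest marker score (1.5 or more, and at least 3 markers in 20% of its cells), unless markers of other classes prevailed among its 10 leading genes. The epithelium was clustered again (20 components, clusters E1 to E19) and split by the ciliated score. Sums per library and class (10 cells or more) were tested with edgeR 4.0.16 (TMM, filterByExpr, quasi-likelihood, adjusted p of 0.05). DESeq2 1.42.0, other scaling, no low-count filter, left-out libraries and thinned sums were alternatives. The tests were checked on simulated data. Distal 3 carries the number 4 in a second label, so the proximal library that shares its number depends on the label. Distal 2 and proximal 2 carry the number 2 in both labels. The main tests used no pairing. A replicate block and a term for number 2 were among the alternatives.

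The members, lists and tests were chosen with earlier results of these data known. Named genes were the members, up to 4 pathway genes with the largest increase past the threshold per class, up to 6 with the smallest adjusted p per region comparison, and the 5 genes most like each member; values are printed for some of these, and some are not reported here. Amino acid sequences were not used here.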

Additional observations from a re-analysis of the deposited data

Results flagged for a closer look

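The fitted regional difference of Ednrb had opposite signs in smooth muscle (log2 difference 3.54) and blood endothelium (log2 difference -2.30, edgeR adjusted p = 0.0991, not called). The counted values of the proximal libraries lay above the distal ones in smooth muscle and below them in blood endothelium, but in proximal 3 they rested on 1 and 0 UMIs, where 3 UMIs would give 177 and 98 CPM, so neither order is established. Within smooth muscle cluster 20 alone, where distal 2 had too few cells to enter, the difference was 0.07. The difference between the classes was not tested. The clusters that made up proximal and distal cells differed in both classes.

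Members were also counted in the 674 cells that were given no class and entered no comparison, above the 1.44 CPM that 3 UMIs would give. These were Edn1 at 34.1 CPM (exact 95% counting interval 26.6 to 43), Ece1 at 77.2 CPM (65.8 to 90.1), Edn2 at 12.5 CPM (8.15 to 18.3) and Ednra at 3.36 CPM (1.35 to 6.92). Edn2 came mostly from distal 2 (35.6 CPM, against 1.53 and 1.48 CPM in distal 1 and 3), and without that library it was 2.73 CPM. No UMI of Edn3 or Ednrb was counted there. They were 431 cells of a cluster led by haemoglobin genes, 198 of a cluster with Dcpp3, Ovgp1 and Hbb-bt among its leading genes, and 45 of epithelial cluster E16, whose cells held 5.09 times the median UMIs of their library.

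No region held more than 3 libraries, so single outlying libraries were not searched for.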

How the results depend on the processing

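No call of a member changed direction, and 404 of 437 recomputed differences of single members kept their direction and side of the threshold. Counts of called members moved as follows. In ciliated cells 1 member (Edn1) in place of 0 differed between regions under DESeq2, without the low-count filter, with a term for number 2 and without cluster E12, and 0 to 1 when a library was left out. In non-ciliated epithelium 1 in place of 0 passed without the filter (Ednra, edgeR adjusted p = 0.0429, from 0 proximal UMIs) and 0 to 1 with a library left out. In smooth muscle 1 in place of 2 passed without the filter (Ece1 was 1.68, edgeR adjusted p = 0.0690), 0 after thinning the distal sums to proximal depth (which left Ednrb untested) or in cluster 20 alone, and 0 to 2 with a library left out. In blood endothelium 0 in place of 1 passed after thinning (Edn1 1.55, edgeR adjusted p = 0.0912) and 0 to 1 with a library left out. Without the filter, 2 members were higher in ciliated cells in place of 1, 2 in fibroblasts in place of 1, 4 in smooth muscle in place of 2 and 3 in non-ciliated epithelium (Edn1, Edn2 and Ece1) in place of 2. The alternatives by cluster were chosen after seeing the data.

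Only differences that were not called turned sign. Without the mostly proximal clusters (E13 and E15 in this class), Edn1 and Ece1 in non-ciliated epithelium were -0.32 and -0.34. Proximal 3 had too few cells left to enter that fit. Ece1 in ciliated cells was 1.29 without E12, and in fibroblasts 0.05 after thinning. With 1 library left out, Ece1 ran from -0.13 to 0.47 in non-ciliated cells, from -9.41 to 0.61 in ciliated cells and from -0.66 to 0.37 in fibroblasts, and Ednra in ciliated cells from -7.06 to 0.26. Between classes, Ednra in ciliated cells ran from -0.57 to 0.33 and was 0.49 with doublets kept, and Ece1 in pericytes ran from -0.20 to 0.34 and was -0.07 with doublets kept. The cause was not tested.

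The replicate block could be fitted in non-ciliated cells (Edn1 0.92 ± 0.59, edgeR adjusted p = 0.567) and fibroblasts (0 members called); ciliated, smooth muscle and blood endothelial sums left no residual degrees of freedom for it, and smooth muscle and blood endothelium held no term for number 2. Deviations of same-numbered libraries correlated at 0.72 and 0.54 in non-ciliated cells and 0.58 and 0.25 in fibroblasts, over 2 pairs, while distal 3 with proximal 4 gave 0.58 and 0.07. Depth limits proximal levels: 3 UMIs equal 38.6 CPM in proximal smooth muscle and 24.5 CPM in proximal blood endothelium.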
